A study of Mus musculus with 10 samples.

Results

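Scavenger receptors are a group of cell-surface and endosomal proteins that bind modified lipoproteins, bacteria, inhaled particles, apoptotic cells and spent glycoproteins. They fall into classes that are unrelated to each other in structure. The 10 genes described here were named members of that group: Marco and Msr1 (class A), Cd36, Scarb1 and Scarb2 (class B or the CD36 family), Cd68, Cxcl16, the mannose receptor gene Mrc1, Stab1 and Cd163. They were chosen by name, not by their values, though with earlier results of these data known. They were 10 of 26173 genes in the table; all 10 were found, and 8 passed a filter of at least 1 FPKM in at least 2 columns. FPKM is the number of fragments per kilobase of transcript, scaled to the size of the library, and the values of all transcripts of a gene were summed.

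The series measured RNA of alveolar macrophages, the resident phagocytes of the airspace, in mice aged 16 weeks, of the C57BL/6 strain and all labelled female. Both knockouts concern Bach2, a repressor of transcription. In the Bach2-floxed CD4cre line, 2 fractions of knockout macrophages were profiled, those with an aberrant surface marker phenotype (the aberrant-marker library) and those whose surface markers matched the controls (the normal-marker library). Their reference was the control of that line (the conditional control library); whether these controls carried the floxed allele, Cre or both is not given in the labels. The second line compared Bach2_germline_KO mice (the germline knockout library) with wild-type mice (WT). CD4cre is a driver of T cells, so Bach2 may still be intact in macrophages of that line. Because the fractions were chosen by surface markers that the labels do not name, levels of surface receptor genes in them may follow from that choice. Each group had 2 samples.

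In these macrophages, Marco and Msr1 bind bacteria, particles and modified lipoproteins. Cd36 and Scarb1 move lipids across the membrane, and Scarb2 and Cd68 sit mainly in late endosomes and lysosomes. Mrc1 takes up mannose-bearing glycoproteins, Stab1 and Cd163 are best known from perivascular, interstitial and other tissue macrophages, and Cxcl16 is made as a membrane-bound receptor for oxidised lipoprotein whose shed part is a chemokine.

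The 2 samples of a group were nearly identical. On the log2(FPKM + 1) scale the correlation within a pair was 0.996 to 0.999, and between groups it was 0.845 to 0.929, and 0.293% to 1.04% of genes at 1 to 3 FPKM were empty in only 1 of the pair, against 35.3% to 49.7% between groups. They were therefore treated as repeat runs of 1 library and averaged, so that each group counts as 1 library, and p-values and replicate errors cannot be had. Depth, estimated from the lowest values, was about 7.62 to 9.60 M fragments per sample. Receptors at 25 FPKM or more differed by at most 10.5% between runs. Some other genes differed by more, such as Krt19 in the conditional control (864 and 633 FPKM) and Hmox1 in the aberrant-marker library (96.5 and 141 FPKM). Bach2 averaged 0.0571 FPKM or less in every library and could not check the genotypes. Against the female label, Eif2s3y, a gene of the Y chromosome, was at 39.9 FPKM in the germline knockout and 60.8 FPKM in WT, and at 0.107 FPKM or less in the conditional line. A call, higher or lower, needed a 4-fold difference (2 log2 units of FPKM + 1) in the mean and between any pair of runs, and 20 FPKM or more in the library with more. The conditional control over WT, a pair of unaffected libraries of different lines, serves as the yardstick. These 2 libraries also differ in sex-linked genes. Xist ran opposite to Eif2s3y, at 3.75 FPKM in the conditional control and 0.00237 FPKM in WT. In the yardstick, differences of line and of sex therefore cannot be told apart.

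The aberrant-marker library had nearly lost Marco, held far less Scarb1 and less Mrc1, and had gained Cxcl16, while Msr1, Cd36, Scarb2 and Cd68 were not called. Of the 10 genes, 1 was called higher and 3 lower over the conditional control, in a comparison that called 7.85% of all 11336 genes tested, 4.09% higher and 3.76% lower. The same 4 genes were called in the same directions over the normal-marker library, where 7.28% of all genes were called, 4.02% higher and 3.26% lower; both comparisons hold the aberrant-marker library. The normal-marker library itself had 0 of the 10 called over the conditional control, against 1.77% of all genes, 0.935% higher and 0.838% lower. The germline knockout over WT had Cxcl16 called higher and Marco lower, against 6.1% of all genes called, 2.73% higher and 3.36% lower. The yardstick had 0 of the 10 called, against 2.11% of all genes, 1.17% higher and 0.935% lower. Over the 8 genes that passed the filter, 7 had the same sign over the conditional control (aberrant-marker library) and over WT (germline knockout), and Cd68 was the exception. The share of all genes with the same sign was not counted, so this number cannot be read as particular to the receptors.

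**Figure D1:**
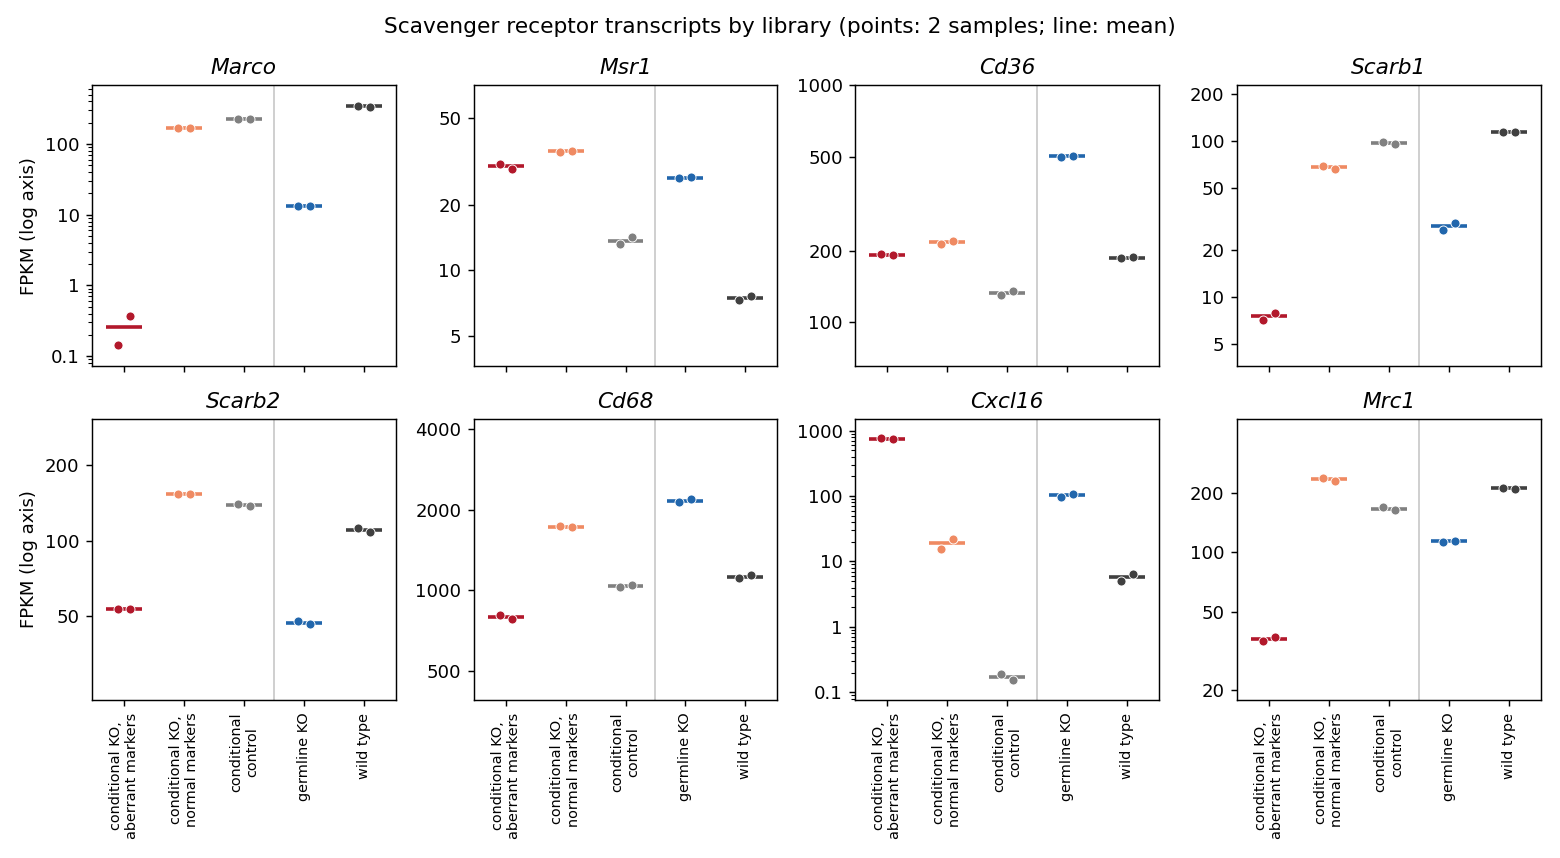
FPKM of 8 scavenger receptors on log axes, by library; the 2 points are the samples of a group, the line their mean, and the grey vertical line parts the conditional from the germline line. Marco sits under 1 FPKM in the aberrant-marker library and at 13.5 FPKM in the germline knockout, and Cxcl16 runs the other way, at 748 and 102 FPKM.

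The makeup of the libraries differed beside these receptors. Of 14 dendritic cell markers, 12 were at 1 FPKM or more in the aberrant-marker library, 6 in the normal-marker and 5 in the conditional control library, and 6 in the germline knockout and 5 in WT. Their summed level was 5956 to 5997 FPKM over the runs of the aberrant-marker, 80.4 to 91.6 FPKM over those of the normal-marker and 33.1 to 36.7 FPKM over those of the conditional control library; it was 325 to 329 FPKM in the germline knockout and 77.3 to 84.4 FPKM in WT. Xcr1 was at 0 in the aberrant-marker library, and Flt3, Cd209a and Fscn1 were at 0 in the conditional control and in WT. All 10 T cell markers were at 1 FPKM or more in the aberrant-marker library, against 1 in the normal-marker and 2 in the conditional control library, and 2 in the germline knockout against 1 in WT. Cd3d, Cd3e and Cd3g were at 0 in each of the other 4 libraries, but the summed T cell list was no higher in the aberrant-marker library (317 to 324 FPKM) than in the conditional control (331 to 334 FPKM), and Cd2 was at 45.7 FPKM in the aberrant-marker library, against 329.6 FPKM in the conditional control. Of 14 markers of monocytes and interstitial macrophages, a list that itself holds Mrc1, Stab1 and Cd163, 9 were at 1 FPKM or more in the aberrant-marker, 5 in the normal-marker and 6 in the conditional control library, and 8 in the germline knockout against 1 in WT. B cell markers were at 0 in all libraries, eosinophil and mast cell markers summed to at most 3.34 FPKM, endothelial markers to at most 7.12 FPKM and neutrophil markers to at most 49.7 FPKM in any sample. Lung epithelial markers summed to 74.9 to 76.3 FPKM in the aberrant-marker, 99.7 to 111 FPKM in the normal-marker and 184 to 186 FPKM in the conditional control library, and to 73.5 to 75.4 FPKM in the germline knockout, against 169.5 to 172 FPKM in WT. The part of these cell types in the receptor levels was not tested, and in bulk RNA fewer cells of a type and less RNA per cell cannot be told apart. Of 13 alveolar macrophage markers, 8 were called lower in the aberrant-marker library over the conditional control, Siglec5 (0.134, against 197 FPKM) among them, and 7 were called lower and 1 higher in the germline knockout over WT.

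Marco, a class A receptor with a collagen-like stalk and a cysteine-rich head that binds bacteria and unopsonised particles, had the largest fall of the 10. It was at 0.144 and 0.372 FPKM in the samples of the aberrant-marker library, 167 and 168 FPKM in those of the normal-marker library and 224 and 224 FPKM in those of the conditional control. In the germline line it was at 13.4 and 13.5 FPKM in the knockout, against 342 and 337 FPKM in WT. The aberrant-marker values are those of a few reads, since 1 read on the longest Marco transcript was worth 0.0541 to 0.0681 FPKM. On the log2(FPKM + 1) scale Marco fell by 7.48 in the aberrant-marker library over the conditional control, by 7.07 over the normal-marker library and by 4.56 in the germline knockout over WT. The difference of the normal-marker library over the conditional control (-0.41) was smaller than that between the control libraries (-0.60). The 2 genes outside the group with the profile most like that of Marco over the 5 libraries, by root mean square distance of centred log2 profiles, were Cd1d1 (0.63) and Adcy3 (0.72). Cd1d1, which presents lipids to natural killer T cells, was listed at 0 in the aberrant-marker, 53.3 FPKM in the normal-marker and 69.6 FPKM in the conditional control library, and at 4.48 FPKM in the germline knockout, against 70.1 FPKM in WT.

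Msr1, the macrophage class A receptor for acetylated lipoprotein, was not called in any comparison, but its isoforms did not move together. The table lists a type I transcript of 458 codons, which carries a scavenger receptor cysteine-rich domain at its end, and a type II transcript of 354 codons, which stops short of that domain. The transcripts share 1054 coding bases; type II has 8 coding bases of its own before the stop codon and type I has 320. The end of the shared coding sequence, in lower case, is shown with the bases private to each form in capitals, to show where the forms part; beyond these bases the type II transcript also runs on past its stop codon in sequence that type I lacks (mouse chromosome 8, strand of the transcript, GENCODE M21 transcripts paired with the RefSeq entries; for type I the first 36 private bases).
Msr1 type II: ggggagtgtaggcggatcaaGATCAGTA
Msr1 type I: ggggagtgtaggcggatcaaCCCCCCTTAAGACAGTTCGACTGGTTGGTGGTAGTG

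Type I was at 22.1 and 20.3 FPKM in the aberrant-marker library, where it made up 70.7% of Msr1, and at under 0.001 FPKM in the normal-marker and 0.0366 FPKM in the conditional control library. In the germline knockout type I was at 6.82 and 5.96 FPKM, or 24.0% of Msr1, against under 0.001 FPKM in WT. The long form was thus measured at over 1 FPKM in these 2 knockout libraries alone. Type II averaged 8.78 FPKM in the aberrant-marker, 35.0 FPKM in the normal-marker and 13.7 FPKM in the conditional control library, and 20.2 FPKM in the germline knockout, against 7.48 FPKM in WT. The aberrant-marker library therefore held less of type II than the conditional control but more than WT, and more of both forms together than either control library. The split of reads between the forms is the authors' estimate from shared and private bases.

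**Figure D2:**
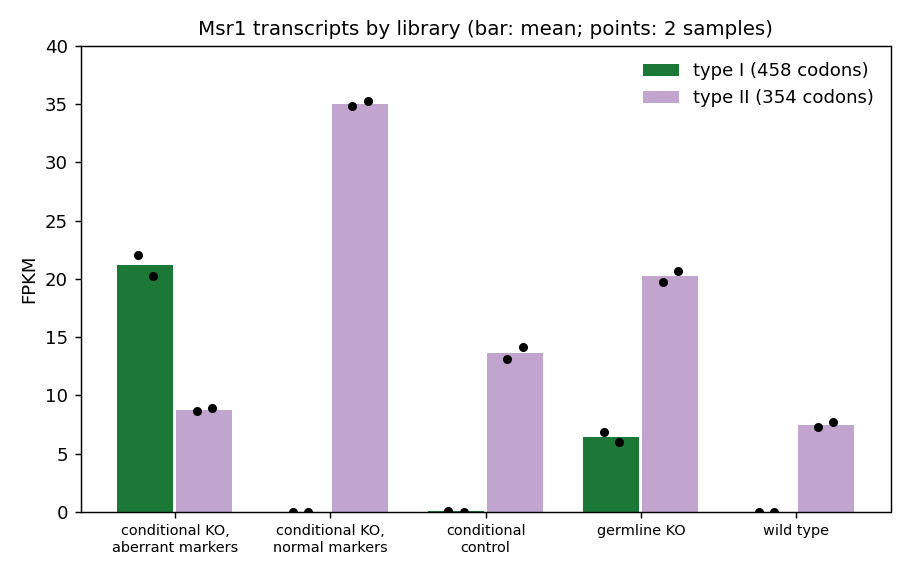
FPKM of the type I and type II transcripts of Msr1 by library; bars are means and points the 2 samples. Type I reaches 21.2 FPKM in the aberrant-marker library and 6.39 FPKM in the germline knockout and lies at or near 0 in the other libraries.

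Summed over both forms, Msr1 was at 30.7 and 29.2 FPKM in the aberrant-marker, 34.8 and 35.2 FPKM in the normal-marker and 13.2 and 14.2 FPKM in the conditional control library. In the germline line it was at 26.6 and 26.6 FPKM in the knockout, against 7.29 and 7.67 FPKM in WT. All 3 knockout libraries lay above both control libraries, with log2 differences of 1.07 for the aberrant-marker and 1.29 for the normal-marker library over the conditional control and 1.70 for the germline knockout over WT, each under the 4-fold rule; the control libraries were 0.79 apart. With the type II transcript alone, the one with the highest mean, the aberrant-marker difference turned to -0.58. That is smaller in size than the 0.79 between the control libraries for the summed gene. The genes with the most similar profiles were Htatip2 (distance 0.17) and Nudt3 (0.20).

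Cd36, which takes up long-chain fatty acids and oxidised lipoprotein, was kept in every library. It was at 193 and 192 FPKM in the aberrant-marker, 214 and 221 FPKM in the normal-marker and 130.3 and 135 FPKM in the conditional control library. The germline knockout stood apart with 501 and 503 FPKM, against 187 and 189 FPKM in WT. The log2 differences were 0.53 for the aberrant-marker and 0.71 for the normal-marker library over the conditional control and 1.41 for the germline knockout over WT, where the control libraries differed by -0.50. A predicted transcript model took 83.0% to 89.4% of the gene's FPKM in each library, so the level of Cd36 rests on that model. The nearest profiles were those of F10, coagulation factor X (0.15), and Il10rb, a subunit of the interleukin-10 receptor (0.18).

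Scarb1, the receptor for high-density lipoprotein, ran in the opposite direction. It was at 7.14 and 7.90 FPKM in the aberrant-marker, 69.8 and 66.2 FPKM in the normal-marker and 98.5 and 96.1 FPKM in the conditional control library. In the germline line it was at 26.9 and 29.9 FPKM in the knockout, against 114 and 115 FPKM in WT. Each knockout library lay below its control, and the 5 libraries stood in the same order as for Marco. Scarb1 fell by 3.53 on the log2 scale in the aberrant-marker library over the conditional control, and over the normal-marker library the difference was -3.02. The difference of -1.98 in the germline knockout over WT stayed just short of the rule, and that of the normal-marker library was -0.51, with -0.24 between the control libraries. Pik3ap1 and Mcemp1, a membrane protein of mast cells and macrophages, had the most similar profiles (distance 0.11 each).

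Scarb2, a lysosomal membrane protein that carries glucocerebrosidase to lysosomes, was lower in the aberrant-marker and germline knockout libraries than in their controls, but by less than 4-fold. It was at 53.5 and 53.7 FPKM in the aberrant-marker, 154 and 154 FPKM in the normal-marker and 141 and 138 FPKM in the conditional control library, and at 47.9 and 46.4 FPKM in the germline knockout, against 112 and 109 FPKM in WT. The aberrant-marker and germline knockout libraries lay together, below the other 3. The log2 differences were -1.36 for the aberrant-marker and 0.14 for the normal-marker library over the conditional control and -1.21 for the germline knockout over WT; the yardstick was 0.33. Its closest profiles were those of Slk, a kinase (0.03), and Tlr2, a receptor for bacterial lipoproteins (0.09).

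Cd68, a heavily glycosylated protein of late endosomes and a common macrophage marker, was the most abundant of the 10 in each of the 5 libraries. It was at 809 and 779 FPKM in the aberrant-marker, 1732 and 1719 FPKM in the normal-marker and 1027 and 1043 FPKM in the conditional control library. In the germline line it was at 2136 and 2192 FPKM in the knockout, against 1110.4 and 1137 FPKM in WT. The aberrant-marker library was lowest and the germline knockout highest, with the control libraries side by side. The log2 differences were -0.38 for the aberrant-marker and 0.74 for the normal-marker library over the conditional control, 0.94 for the germline knockout over WT and -0.12 between the control libraries. Among the nearest profiles was that of Lamp2, another lysosomal membrane protein (distance 0.11), beside Mbnl2 (0.11).

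Cxcl16, the transmembrane chemokine that also binds oxidised lipoprotein and phosphatidylserine, was the gene gained. It was at 763 and 733 FPKM in the aberrant-marker, 15.8 and 22.0 FPKM in the normal-marker and 0.191 and 0.153 FPKM in the conditional control library. In the germline line it was at 97.2 and 107 FPKM in the knockout, against 5.09 and 6.51 FPKM in WT. In the aberrant-marker library, the only transcript that is not a predicted model held 66.2% of the gene, or 495 FPKM. Predicted models with identical values held the rest. In the normal-marker runs that transcript was at 15.7 and 13.1 FPKM, and each predicted model at 0.00865 and 4.47 FPKM. With that transcript alone, the aberrant-marker difference over the conditional control was 8.78, still called. As in each of the 8 genes that passed the filter, the runs of the 5 libraries did not overlap. Each knockout library lay above both control libraries, but the normal-marker library was only 1.55 log2 units above WT, less than the gap between the controls. How many of all genes share this order was not counted. Cxcl16 rose by 9.32 on the log2 scale in the aberrant-marker library over the conditional control, by 5.23 over the normal-marker library and by 3.92 in the germline knockout over WT. The normal-marker library was 4.09 above the conditional control but missed the floor of 20 FPKM. The control libraries themselves were 2.54 apart, the widest gap between them among the 8 genes, so that the size of the conditional differences depends on a control level of a few reads (1 read was worth 0.0386 to 0.0486 FPKM). Over WT instead of the conditional control, the normal-marker library had no call for Cxcl16.

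Cxcl16, its predicted models included, made up 40.1% of the summed FPKM of the 10 genes in the aberrant-marker library, and Cd68 42.6%. Cxcr6, the receptor of CXCL16 on T cells and other lymphocytes, was at 22.3 FPKM in the aberrant-marker library and listed at 0 in the other 4. ADAM10 and ADAM17 are the proteases that shed CXCL16 from the membrane. Adam10 was at 35.0 FPKM in the aberrant-marker, 34.3 FPKM in the normal-marker and 23.4 FPKM in the conditional control library, and at 15.2 FPKM in the germline knockout, against 11.6 FPKM in WT, with no call. Adam17 was at 31.7, 58.0 and 19.0 FPKM in the aberrant-marker, normal-marker and conditional control libraries, and at 36.6 FPKM in the germline knockout, against 38.5 FPKM in WT, also with no call. Cxcl16 overlaps Zmynd15 on the opposite strand by 552 bases, and the libraries do not mark strand. Zmynd15 was at 67.9 FPKM in the aberrant-marker and under 0.001 FPKM in the normal-marker and conditional control libraries, and at 9.17 FPKM in the germline knockout, against 0.00240 FPKM in WT; reads of the overlap cannot be told apart. The profiles most like that of Cxcl16 were those of Mreg, melanoregulin (0.64), and Marcks (0.93). Mreg was at 339 FPKM in the aberrant-marker, 18.8 FPKM in the normal-marker and 0.140 FPKM in the conditional control library.

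Mrc1, the mannose receptor, was at 35.6 and 36.9 FPKM in the aberrant-marker, 238 and 231 FPKM in the normal-marker and 169 and 164 FPKM in the conditional control library. In the germline line it was at 113 and 114 FPKM in the knockout, against 212 and 209 FPKM in WT. It was lowest in the aberrant-marker library, and the normal-marker library was the highest of the 5. Mrc1 fell by 2.17 on the log2 scale in the aberrant-marker library over the conditional control and by 2.66 over the normal-marker library. The other differences were 0.49 for the normal-marker library over the conditional control, -0.89 for the germline knockout over WT and -0.34 between the control libraries. Pdxdc1 was among the genes with the closest profiles (distance 0.17).

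Stab1, stabilin-1, an endocytic receptor of tissue macrophages and sinusoidal endothelium, was at 0.998 and 1.23 FPKM in the aberrant-marker library and listed at 0 in each of the other 8 samples, where 1 read was worth at most 0.0164 FPKM. With 1 column above 1 FPKM it did not pass the filter, and no difference of it was called. Stab1 overlaps Nt5dc2 on the opposite strand by 112 bases, and Nt5dc2 was at 0.570 FPKM in the aberrant-marker library, against 6.23 FPKM in WT. Cd163, the receptor for haemoglobin bound to haptoglobin, was listed at 0 or under 0.001 FPKM in all 10 samples. Hmox1, which breaks down the haem that CD163 brings in, was present without it, at 96.5 and 141 FPKM in the aberrant-marker samples, 294 FPKM in the normal-marker and 513 FPKM in the conditional control library, and at 192 FPKM in the germline knockout, against 278 FPKM in WT. The mean Hmox1 difference of the aberrant-marker library over the conditional control was -2.10 on the log2 scale, and it was not called because the pairings of runs gave -2.40 to -1.85. With input this small (100 pg of RNA and 18 cycles of PCR), rare transcripts can drop out of a library.

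**Figure D3:**
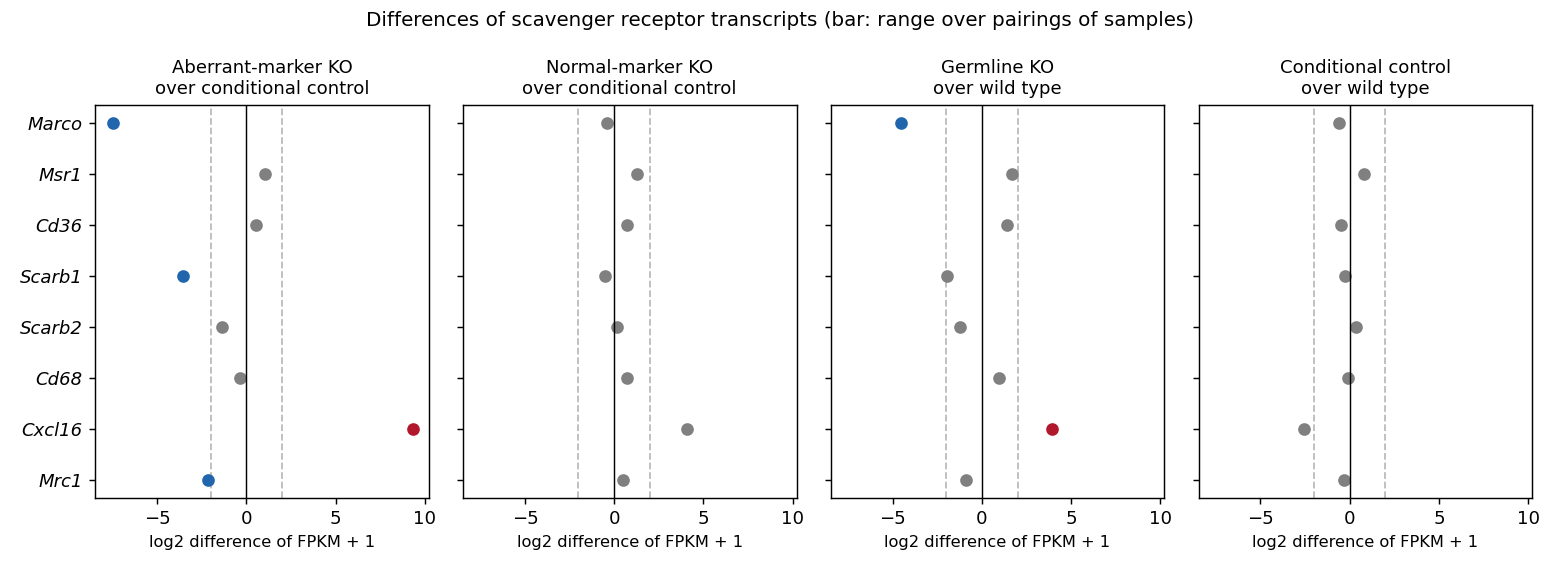
Difference of log2(FPKM + 1) of 8 scavenger receptors in 4 comparisons; points are means, bars (mostly hidden by the points) the range over pairings of samples, dashed lines the 4-fold threshold, blue called lower, red called higher and grey not called. Marco at -7.48 and Cxcl16 at 9.32 mark the ends of the aberrant-marker comparison, and the conditional control over WT holds no coloured point.

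Measured against the yardstick, all 8 genes that passed the filter differed by more in the aberrant-marker library over the conditional control than between the 2 control libraries, as did 58.6% of all genes tested. In the germline knockout over WT all 8 did, beside 55.9% of all genes. In the normal-marker library over the conditional control 6 of the 8 did, beside 44.9% of all genes, the exceptions being Marco and Scarb2. In the aberrant-marker over the normal-marker library 6 of the 8 did, beside 59.9% of all genes, the exceptions being Msr1 and Cd36. The median log2 difference of all 10 genes, Stab1 and Cd163 included, was -0.19 in the aberrant-marker library and 0.32 in the normal-marker library over the conditional control, -0.67 in the aberrant-marker over the normal-marker library, 0.00 in the germline knockout over WT and -0.18 in the conditional control over WT, where the medians over all genes tested were 0.00, 0.00, 0.02, 0.00 and 0.00. Stab1 and Cd163 did not pass the filter but enter the medians of the 10, while the medians over all genes hold only genes that passed. In the germline knockout over WT, both had a difference of 0, and these values set the median of 0.00. The medians of the 10 are therefore not like for like with those of all genes. Genes above and genes below their control stood side by side in each of these comparisons. Their summed level was 1864 FPKM in the aberrant-marker, 2621 FPKM in the normal-marker and 1809 FPKM in the conditional control library, and 2997 FPKM in the germline knockout, against 2099.8 FPKM in WT. With the libraries ordered by level in each of the 8 genes, the control libraries were always neighbours, and in 10 of the 24 other pairs of neighbours the gap was no wider than that between the control libraries for the same gene. The same counts were not made over all genes, so neither can be read as particular to these receptors.

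Promoters of 7 of the 10 genes were found in the RefSeq table of 32851 promoters (GRCm38.p6; 250 bases before to 50 bases after the start of the gene, 5′ to 3′ on the gene's strand). Those of Msr1, Scarb1 and Cxcl16 are named only. Each window was searched on both strands for TGANTCA, the core bound by AP-1 factors and held within the longer element bound by BACH and MAF proteins; for TGCTGA, the flank of that element; for GAGGAA, the core bound by the macrophage factor PU.1; and for AGGTCA, the nuclear receptor half-site. TGANTCA reads the same on both strands but for its middle base, and each of its positions was counted once. Marco and Mrc1 are shown because both fell in the aberrant-marker library, and Cd68 because it was kept in every library; matches are in capitals.
Marco promoter, chr1:120504975-120505274, minus strand: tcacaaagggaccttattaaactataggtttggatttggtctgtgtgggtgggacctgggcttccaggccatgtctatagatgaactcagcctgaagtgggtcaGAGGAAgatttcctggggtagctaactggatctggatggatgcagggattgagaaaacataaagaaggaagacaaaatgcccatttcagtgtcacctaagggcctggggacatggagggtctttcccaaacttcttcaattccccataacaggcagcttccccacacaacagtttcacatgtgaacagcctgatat
Mrc1 promoter, chr2:14229164-14229463, plus strand: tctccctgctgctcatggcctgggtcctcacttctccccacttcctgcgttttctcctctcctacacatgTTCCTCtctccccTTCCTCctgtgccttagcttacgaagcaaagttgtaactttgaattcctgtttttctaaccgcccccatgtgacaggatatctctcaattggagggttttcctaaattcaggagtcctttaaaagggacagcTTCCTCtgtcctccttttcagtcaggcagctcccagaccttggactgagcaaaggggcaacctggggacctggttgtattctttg
Cd68 promoter, chr11:69666121-69666420, minus strand: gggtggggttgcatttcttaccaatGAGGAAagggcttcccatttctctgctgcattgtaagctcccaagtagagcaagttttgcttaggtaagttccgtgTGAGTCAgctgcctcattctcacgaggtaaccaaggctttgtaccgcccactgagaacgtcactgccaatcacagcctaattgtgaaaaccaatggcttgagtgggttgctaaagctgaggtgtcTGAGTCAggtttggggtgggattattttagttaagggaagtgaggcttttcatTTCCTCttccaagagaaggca

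GAGGAA was present in 4 of the 7 promoters, against 28.3% of all promoters in the table. Its first base, counted from the start of the gene, lay at -146 in Marco, at -180, -167 and -35 on the opposite strand in Mrc1, at -225 and, on the opposite strand, at 30 in Cd68, and at -30 in Stab1. TGANTCA was present in 1 of the 7, Cd68, at -149 and -24, against 7.81% of all promoters. TGCTGA was present in 3 of the 7 (Cd36, Scarb2 and Stab1), against 19.5%, and AGGTCA in 1 of the 7 (Cd36), against 16.3%. GAGGAA was not in the windows of Cd36, Scarb2 and Cd163. A match of letters is a description of the sequence and not a measured site.

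A list of other scavenger receptors and related proteins, 25 genes of which 12 passed the filter, was set beside the 10. It also holds secreted proteins such as Lgals3bp, and the enzyme gene Lox, listed at 0 in every library. Its counts are therefore not counts of receptors alone. Over the conditional control, the aberrant-marker library had 0 called higher and 2 lower. Olr1, the lectin-like receptor for oxidised lipoprotein, was at 2.38 FPKM in the aberrant-marker, 81.8 FPKM in the normal-marker and 58.4 FPKM in the conditional control library. Colec12, a collectin receptor, was at 1.49, 7.27 and 21.9 FPKM in the same libraries. Unlike Marco, Olr1 was not called in the germline knockout (55.3 FPKM, against 82.6 FPKM in WT), and neither was Colec12 (6.66, against 8.80 FPKM). The normal-marker library over the conditional control, the germline knockout over WT and the yardstick each had 0 of these 25 genes called. Lrp1, a large endocytic receptor, was at 20.1 FPKM in the aberrant-marker, 40.5 FPKM in the normal-marker and 62.1 FPKM in the conditional control library, and at 54.1 FPKM in the germline knockout, against 59.2 FPKM in WT, with no call.

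**Figure D4:**
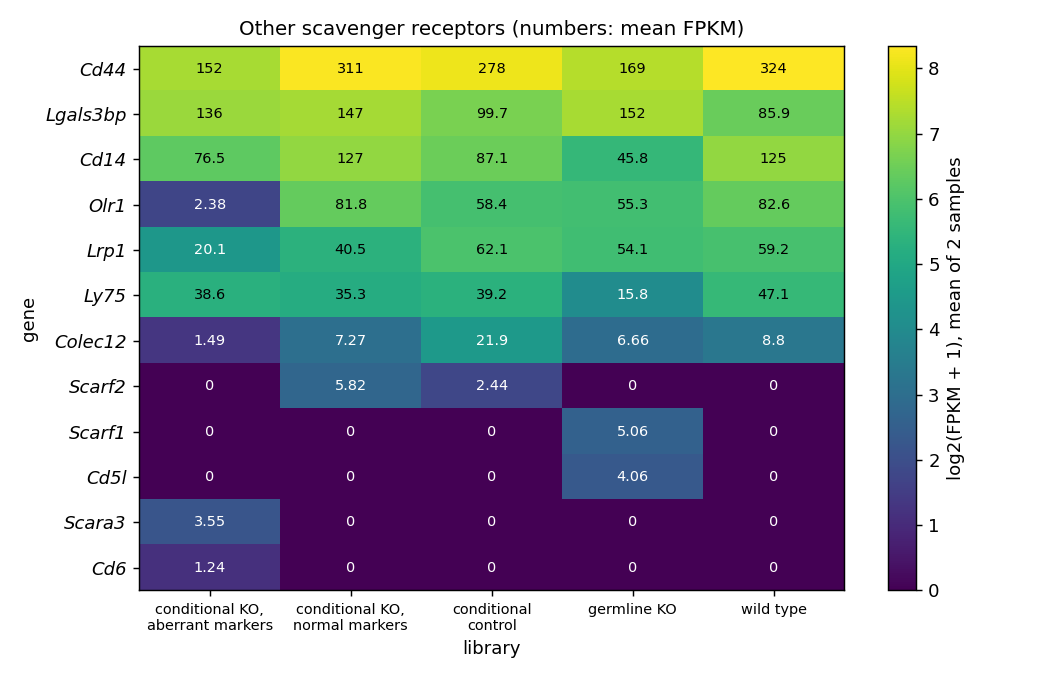
Mean FPKM (numbers) and log2(FPKM + 1) (colour) of the other scavenger receptors and related proteins that reached 1 FPKM in at least 1 library. Olr1 stands out in the aberrant-marker library, at 2.38 FPKM beside 55.3 to 82.6 FPKM elsewhere.

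Of 19 ligands and partners of the 10 receptors, 2 were called higher and 1 lower in the aberrant-marker library over the conditional control, and 0 in the germline knockout over WT. The genes higher were Cxcr6 and Sphk1, a sphingosine kinase (41.0 FPKM, against listed at 0), and the gene lower was Cd9 (621, against 4595 FPKM), a tetraspanin that associates with CD36. Receptors and bridges for apoptotic cells, a task shared with Cd36, Msr1 and Stab1, had 2 of 20 called higher and 2 lower in the aberrant-marker library over the conditional control. Mertk, a receptor kinase for apoptotic cells, was at 8.72 FPKM in the aberrant-marker, 82.8 FPKM in the normal-marker and 73.0 FPKM in the conditional control library. Its bridging protein gene Pros1 was at 16.1, 141 and 142 FPKM in these libraries. Mfge8, another bridge, was called higher in all 3 knockout libraries, at 180 FPKM in the aberrant-marker and 135 FPKM in the normal-marker library, against 10.8 FPKM in the conditional control, and at 423 FPKM in the germline knockout, against 13.9 FPKM in WT.

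Of 18 genes of lipid uptake and efflux, the field of Cd36 and Scarb1, 1 was called higher and 5 lower in the aberrant-marker library over the conditional control, and 1 higher and 3 lower in the germline knockout over WT. In the aberrant-marker library over the conditional control, Abca1 (0.0980, against 6.58 FPKM) missed the floor of 20 FPKM. Among the genes called there, the largest falls were those of Cidec, a lipid droplet protein (0.266, against 299 FPKM), Fabp1, a fatty acid binding protein (9.56, against 507 FPKM), and Lpl, lipoprotein lipase (85.1, against 529.7 FPKM). Cd36 did not follow them in either line. Pparg, the nuclear receptor that drives alveolar macrophage maturation and activates Cd36 in mouse macrophages, was at 31.2 FPKM in the aberrant-marker, 147 FPKM in the normal-marker and 95.3 FPKM in the conditional control library, and at 79.3 FPKM in the germline knockout, against 153 FPKM in WT. Pparg was called lower in the aberrant-marker over the normal-marker library (-2.20 on the log2 scale) and in no comparison with a control. Its partner Rxra was called lower in the aberrant-marker library over the conditional control (1.88, against 55.6 FPKM), in a list of 23 macrophage transcription factors with 4 called higher, Relb, Irf4, Nfkb2 and Nfkb1, and 1 lower.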

How the data were processed

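RNA of alveolar macrophages from 10 samples was sequenced. Per the labels' protocols, cDNA was made from 100 pg of RNA with a SMARTer kit and 18 PCR cycles, sheared, and made into Ovation Ultralow libraries, which carry no molecular identifiers. The authors deposited FPKM for 45913 transcripts; the submitters' processing notes name Bowtie 1.1.2 and eXpress 1.5.1, but not their roles, and the genome build is not given in the sources used here.

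Samples were grouped by title, and transcripts were summed to 26173 Entrez genes. Differences are on the log2(FPKM + 1) scale, with a pseudocount of 1 FPKM, which understates the change of low genes. Because the samples of a group agree nearly as repeat runs, they were averaged and a size rule stood in for limma. Depth comes from the lowest values of single-transcript genes of at least 1500 bases (GENCODE M21 lengths for 32449 transcripts); the number of runs does not widen the 1 library behind each value.

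The members, gene lists, thresholds and alternatives were chosen with earlier results of these data known. Genes named beyond the members were the 2 nearest profiles of each member, among genes at 20 FPKM or more in at least 1 library and without predicted genes, up to 3 called genes of a list with the largest difference, and 8 partners and regulators in any case (Pparg, Hmox1, Cxcr6, Adam10, Adam17, Lrp1, Mertk, Bach2); Siglec5, the other genes called in a list of 5 or fewer, the sex-linked and overlapping genes and genes named at 0 were added after their values were seen. Some genes that this rule names are not reported here. Of 201 list symbols, 8 were not found and are not analysed here. Lists of B cell, neutrophil, eosinophil and mast cell, endothelial and lung epithelial markers were summed too; Python 3.11.15, pandas 2.3.3 and numpy 2.4.6 were used.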

Additional observations from a re-analysis of the deposited data

Results flagged for a closer look

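Effects under the same kind of contrast took opposite directions in 4 cases, and none of these differences was tested, because each rests on 1 library per group. How many of all genes show such opposite directions was not counted. Cd68 was -0.38 on the log2 scale in the aberrant-marker library over the conditional control and 0.94 in the germline knockout over WT, a difference of -1.33 between the lines. Within the conditional line, the aberrant-marker effect and the normal-marker effect, which share the conditional control, were -0.38 and 0.74 for Cd68 (difference -1.12), -1.36 and 0.14 for Scarb2 (difference -1.50), and -2.17 and 0.49 for Mrc1 (difference -2.66). The normal-marker value of Scarb2 (0.14) was smaller than the gap between the control libraries (0.33), so it cannot be told from a difference between controls. The Mrc1 difference is the only 1 of the 4 in which either effect passed the 4-fold rule.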

How the results depend on the processing

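Every called member kept its call in all alternatives run, 116 values in all, and no called value changed sign. Many of these values could not have lost a call. Removing the filter, lowering the floor or lowering the threshold only loosens the rule. Leaving out a run only removes pairings that had already passed. Of 464 values that had not been called, 15 became called. With a floor of 5 FPKM, 1 member was called in the normal-marker library over the conditional control and 1 in the conditional control over WT, Cxcl16 in both, against 0. With a threshold of 1 log2 unit, Msr1 was the 1 member called in the normal-marker comparison, and 6 members were called in the germline knockout over WT, against 2. That threshold also called 5 members in the aberrant-marker library over the conditional control, against 4, the added gene being Scarb2 (-1.36). Over the normal-marker library it added Scarb2 (-1.50) and Cd68 (-1.12), both lower in the aberrant-marker library. Scaled to a common total, 1 member was called in the normal-marker comparison, Cxcl16 (4.57), and Scarb1 was called lower in the germline knockout (-2.07), as it was without germline knockout replicate 10 (-2.05). Over WT, 1 member was called in the normal-marker library, Msr1 (2.09). Leaving out 1 run at a time gave 0 to 1 members called in the normal-marker comparison, 1 being Cxcl16 without the normal-marker replicate 2 (4.30).

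Genes called over the whole table moved more. In the aberrant-marker library over the conditional control, 890 were called, against 2180 with the lower floor and 2010 with the lower threshold; in the normal-marker library over the conditional control, 201, against 1064 and 837, and 411 with the common total. In the aberrant-marker over the normal-marker library, 825 were called, against 2165 and 1979; in the germline knockout over WT, 691, against 1926 and 1713, and 1048 with the common total; in the conditional control over WT, 239, against 1198 and 902, and 495 with the common total. Scaling by the median of ratios shifted the differences of the germline knockout over WT by a median of 0.13 log2 units over the genes tested. No paired analysis was possible because the labels give each sample a number of its own, shared with no other group, and the 2 samples of a group count as 1 library. The cause of these moves was not tested beyond their construction. Values under the worth of a few reads, such as Marco in the aberrant-marker and Cxcl16 in the conditional control library, are limited by depth and by 1 library per group.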
